A study of Mus musculus with 5 samples.

Results

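The 8 genes described here encode proteins that package, mark or segregate chromatin: the high mobility group genes Hmgb2, Hmgb3 and Hmgn2, the DNA methyltransferase gene Dnmt1, the Polycomb gene Ezh2, the centromeric histone gene Cenpa, the condensin gene Ncaph, and Sinhcaf, whose product belongs to a histone deacetylase complex built on Sin3. They were chosen by name, with earlier results of these data known. The probes that carry one of these symbols alone were taken, which gave 8 probes for 8 of the 773 genes named by a single symbol on 787 of the 897 probes. RNA of the mouse cerebellum had been measured on arrays before birth, at embryonic day 18 (E18), and at 4 ages after it, named by postnatal day (P7, P14, P21 and P56). The labels give no strain, sex, treatment or genotype, and all 5 groups are whole cerebellum that differ in age. Each age has 1 column, the mean signal of 2 array experiments, so no difference has a replicate test and no p-value is given; whether the experiments used separate animals is not stated. The study was made, per its labels, to learn about the genetic basis of cerebellar development.

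In the rodent cerebellum, granule cell progenitors divide in the external granular layer during the early postnatal weeks and then leave the cycle, migrate inwards and mature. Before each division a cell must copy its DNA and the methylation on it, supply new chromatin proteins, load new centromeric histone and condense its chromosomes. High mobility group proteins bend DNA or bind nucleosomes, the Polycomb complex 2 methylates histone H3 at silenced genes, and condensin compacts chromosomes for mitosis.

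Each value is a percent of the probe's own highest age, as read from the table, so ages of 1 probe can be compared and levels of different genes cannot. The words rose and fell are kept for differences of 2-fold or more between 2 ages. Values under 1% were set to 1% for folds, and a fold against such a value is a lower limit. In whole tissue, fewer cells of a type and less RNA per cell cannot be told apart. Relatives and processed copies of the high mobility group genes exist in the mouse genome, and how far a probe also reads them was not tested.

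In the deposited means all 8 genes stayed within 2-fold between E18 and P7 and fell from P7 to P14. At E18 they stood between 69.7% and 99.0%, at P7 between 85.6% and 100%, at P14 between 10.5% and 40.1%, at P21 between 0.07% and 32.0%, and at P56 between 0.07% and 38.6%. Their median was 86.6% at E18, 93.3% at P7, 20.5% at P14, 7.68% at P21 and 5.62% at P56. Over all 897 probes the median was 84.5%, 82.8%, 55.5%, 42.2% and 42.0% at the same ages. The chromatin genes were thus close to the typical probe of the table before P14 and below it from P14 on, with Dnmt1 the nearest to it at P21 and P56.

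**Figure D1:**
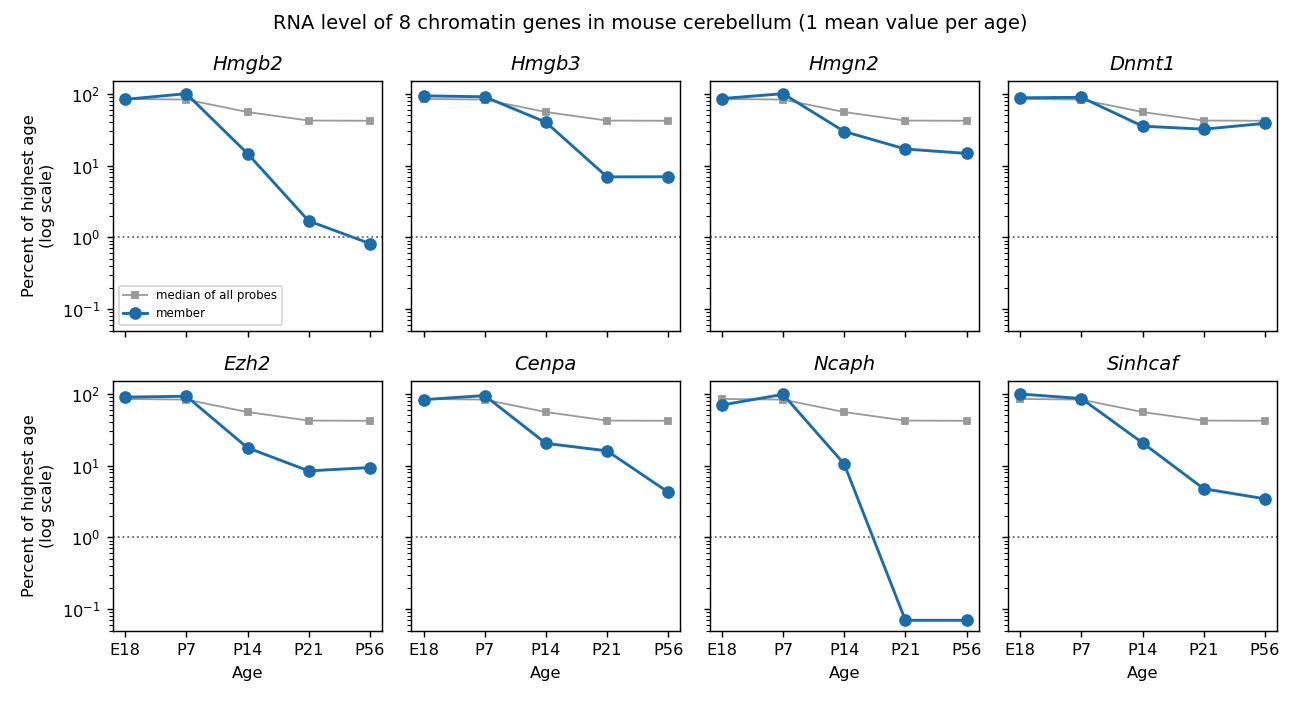
Percent of the highest age (vertical axis, log scale) at E18, P7, P14, P21 and P56 for each of the 8 genes (blue circles) and for the median of all 897 probes (grey squares), with 1 mean value per age and the 1% limit dotted. Ncaph drops to 0.07% at P21 and P56 and Hmgb2 to 0.82% at P56, while Dnmt1 has its lowest value, 32.0%, at P21.

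Promoter sequence is shown for 4 genes, Hmgb2, Hmgb3, Ezh2 and Cenpa, chosen as those with a single RefSeq window that holds 2 or more CCAAT boxes; of the other 4, Hmgn2 has 1 box, Ncaph 0, and Dnmt1 and Sinhcaf several windows. The sequences are the 200 bases before the gene start in RefSeq, build GRCm38.p6, read along the gene's strand. Capitals mark the CCAAT box (CCAAT, bound by the factor NF-Y), the CHR element (TTTGAA, known from genes of late cell cycle) or their complements.
Hmgb2, chr8:57511643-57511842, plus strand: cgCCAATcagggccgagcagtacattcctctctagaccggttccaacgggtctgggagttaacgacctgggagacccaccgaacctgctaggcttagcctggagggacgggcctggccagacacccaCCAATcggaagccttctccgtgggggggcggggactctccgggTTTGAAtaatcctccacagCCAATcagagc
Hmgb3, chrX:71555717-71555916, plus strand: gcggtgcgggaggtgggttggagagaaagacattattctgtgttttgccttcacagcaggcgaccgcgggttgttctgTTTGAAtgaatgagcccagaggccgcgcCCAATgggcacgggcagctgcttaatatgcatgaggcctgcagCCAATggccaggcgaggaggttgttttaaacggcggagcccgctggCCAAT
Ezh2, chr6:47595031-47595230, minus strand: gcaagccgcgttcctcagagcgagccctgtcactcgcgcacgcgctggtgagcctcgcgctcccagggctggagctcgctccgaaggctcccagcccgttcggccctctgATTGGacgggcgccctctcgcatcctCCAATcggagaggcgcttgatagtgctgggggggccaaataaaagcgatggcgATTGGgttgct
Cenpa, chr5:30666686-30666885, plus strand: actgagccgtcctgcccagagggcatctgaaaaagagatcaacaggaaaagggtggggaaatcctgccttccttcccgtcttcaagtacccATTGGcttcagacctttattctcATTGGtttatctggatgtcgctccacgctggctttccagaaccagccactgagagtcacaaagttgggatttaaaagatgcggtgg

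Among the high mobility group genes, Hmgb2 fell furthest. Hmgb2, which encodes a DNA-bending protein abundant in dividing cells, stood at 83.4% at E18, 100% at P7, 14.7% at P14, 1.69% at P21 and 0.82% at P56. Compared with E18 its P56 value was lower by at least 83.4-fold, and none of the 897 probes fell further between these ages on the scale with the 1% limit. That rank rests on the limit. With no floor other than the smallest value in the table, the log2 difference was -9.96 for Ncaph and -6.67 for Hmgb2. Hmgb3, its X-linked relative, kept more of its level at P14 and then dropped: it stood at 93.3%, 90.5%, 40.1%, 6.94% and 6.97% from E18 to P56. It fell 2.26-fold from P7 to P14 and 5.77-fold from P14 to P21, so that 68.4% of its log2 fall between P7 and P56 lay in the later of these steps, against 46.9% for Hmgb2. Hmgn2, which encodes a small nucleosome-binding protein, stood at 85.5%, 100%, 29.7%, 17.0% and 14.7%, and its fall at P56 against E18 was 5.81-fold.

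Relatives of these genes on the same arrays had smaller changes. Hmgb1, the general member of the same family, stood at 49.1% at P56, against 87.1% at E18, a 1.78-fold difference that did not reach 2-fold. Hmgn1 stood at 37.9% at P56, against 95.2% at E18, and fell 2.52-fold. These are differences within each probe, and with 1 column per age the gap between relatives was not tested.

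The genes for DNA and histone methylation differed in how far they fell. Dnmt1, which copies DNA methylation onto the new strand at replication, stood at 87.7% at E18, 88.9% at P7, 35.3% at P14, 32.0% at P21 and 38.6% at P56. It fell 2.52-fold from P7 to P14 and stayed within 2-fold at the later steps. At P56 it was 2.27-fold lower than at E18, a log2 difference of -1.18 beside -1.07 for the median probe, and 43.9% of all probes fell further. With columns divided by their medians this difference was -0.17 and with quantile normalization -0.19, both short of 2-fold. Ezh2, the histone H3 methyltransferase of Polycomb complex 2, stood at 89.6%, 92.3%, 17.7%, 8.42% and 9.37% over the 5 ages. It fell 9.56-fold at P56 against E18, and 5.35% of probes fell further. Its partner in the complex, Rbbp4, a histone-binding protein also found in deacetylase complexes, stood at 52.3% at P56, against 87.4% at E18, within 2-fold.

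Of the genes for chromosome structure in mitosis, Ncaph had the steepest drop. Ncaph, a subunit of condensin I, stood at 69.7% at E18, 97.9% at P7, 10.5% at P14 and 0.07% at both P21 and P56. Compared with E18, the drop at P56 was at least 69.7-fold. Cenpa, the histone H3 variant that marks the centromere, took another course: 82.7% at E18, 94.3% at P7, 20.4% at P14, 16.0% at P21 and 4.26% at P56. It fell 4.63-fold from P7 to P14, stayed within 2-fold to P21, and fell 3.76-fold from P21 to P56. Of the 897 probes, 20 (2.23%) fell 2-fold or more in that last step. Only Gh, the growth hormone gene, fell further than Cenpa there on the scale with the 1% limit (3.94-fold, named after its value was seen). On that scale the other 7 members did not reach 2-fold, but the 1.69-fold of Hmgb2 is a lower limit. With no floor other than the smallest value in the table, the log2 difference of Hmgb2 in this step was -1.04. When low values were raised to the 10th percentile of the table, or to the 25th, this last difference of Cenpa was 0.

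Sinhcaf stood at 99.0% at E18, 85.6% at P7, 20.7% at P14, 4.75% at P21 and 3.44% at P56. Its falls from P7 to P14 (4.14-fold) and from P14 to P21 (4.36-fold) were alike in size, and at P56 it was 28.8-fold lower than at E18. Of the 17 genes listed for histone deacetylase complexes, Hdac5 was the one measured, and it moved the other way: Hdac5, a class II deacetylase gene of neurons and muscle, stood at 99.9% at P56, against 33.1% at E18, and rose 3.02-fold. Rbbp4, listed with the Polycomb genes but also found in deacetylase complexes, was lower at P56, at 52.3%, against 87.4% at E18, within 2-fold.

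Step by step, the deposited means of the 8 genes changed little up to P7 and fell after it. At P7 against E18, 0 of the 8 reached 2-fold in either direction, where 2.79% of all probes fell and 5.80% rose. At P14 against P7 all 8 fell, with a median log2 difference of -2.13 beside -0.58 over all probes, of which 24.7% fell. With columns divided by their medians Hmgb3 (-0.60) and Dnmt1 (-0.76) did not reach 2-fold in this step, and with quantile normalization Hmgb3 (-0.85) did not. At P21 against P14 Hmgb2, Hmgb3, Ezh2, Ncaph and Sinhcaf fell, 5 of 8 beside 13.2% of all probes, and the median of the 8 was -1.60 beside -0.35. When low values were raised to the 10th percentile none of the 5 reached 2-fold. With quantile normalization the difference of Ezh2 turned to 0.057, and Sinhcaf (-0.93) did not reach 2-fold. Ezh2 also fell short of 2-fold with columns divided by their medians (-0.67) and with a pseudocount of 1% (-0.99). At P56 against P21 Cenpa alone fell on the scale with the 1% limit, 1 of 8 beside 2.23%. For Hmgb2, at 0.82% at P56, this scale gives only a lower limit of 1.69-fold.

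**Figure D2:**
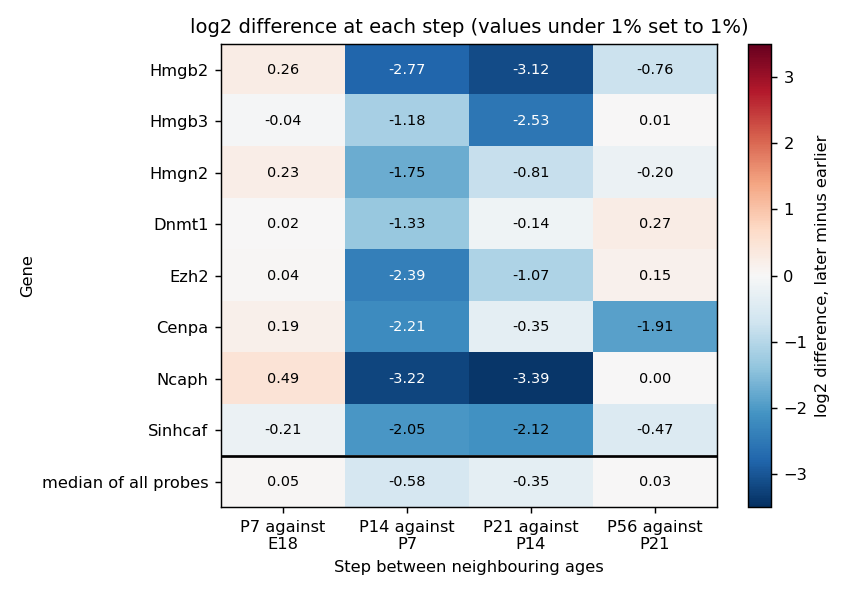
log2 difference, later minus earlier, at each step between neighbouring ages (columns) for the 8 genes and for the median of all probes (rows), with values under 1% set to 1%. All 8 genes are at -1.18 or below at P14 against P7, and Cenpa has its further fall of -1.91 at P56 against P21.

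Across the whole interval all 8 genes fell at P56 against E18, with a median log2 difference of -4.01 (from -6.38 for Hmgb2 to -1.18 for Dnmt1), beside -1.07 over all probes. The values of Hmgb2 (-6.38) and Ncaph (-6.12) are limits set by the 1% floor, and with no floor other than the smallest value in the table they were -6.67 and -9.96, while the median stayed at -4.01. The background is high in this comparison, since 52.5% of all probes fell. At P56 against P7 all 8 fell as well, beside 52.3% of all probes, with a median of -4.08. Both intervals use the P56 column. The balance of the table depends on the scale between columns: at P56 against E18, 203 probes rose and 471 fell, with columns divided by their medians 272 and 147. On that scale and with quantile normalization Dnmt1 did not reach 2-fold at P56 against E18 (-0.17 and -0.19), while the other 7 members still fell.

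The means also limit what the 2 experiments behind them can have been. Exactly 100% is reached at 1 age by 420 of the 897 probes, and the other 477 have their highest value below 100% and their second highest at 57.2% or above. That is what averaging gives if each experiment was scaled to 100% at its own highest age; the labels do not state it. Under this reading Hmgb2 and Hmgn2, at 100% at P7, were highest at P7 in both experiments. For each of the other 6 genes, each later age averages under 50% and so was the highest in neither experiment, so 1 experiment was highest at E18 and the other at P7, and the E18 and P7 values of both can be solved. The same single solution holds for 128 probes, 14.3% of the table.

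By that solution the 2 experiments have opposite directions of P7 against E18 for each of the 6 genes, so only the sizes of the differences add to it. For Cenpa, 1 experiment had 88.6% at P7, against 100% at E18, and the other 100% at P7, against 65.3% at E18. For Ncaph the values were 95.7% at P7, against 100% at E18, in 1 experiment, and 100% at P7, against 39.3% at E18, in the other. That 2.54-fold difference was the only one of the 12 to reach 2-fold. For Sinhcaf they were 71.2% at P7, against 100% at E18, and 100% at P7, against 98.0% at E18. In log2 terms the experiments highest at P7 gave P7 minus E18 differences between 0.03 (Sinhcaf) and 1.35 (Ncaph), and those highest at E18 gave between -0.49 (Sinhcaf) and -0.06 (Ncaph). The order of E18 and P7 in the deposited means of these 6 genes is therefore not shared by the experiments, if the reading holds. Which experiment of 1 gene matches which of another is not known.

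**Figure D3:**
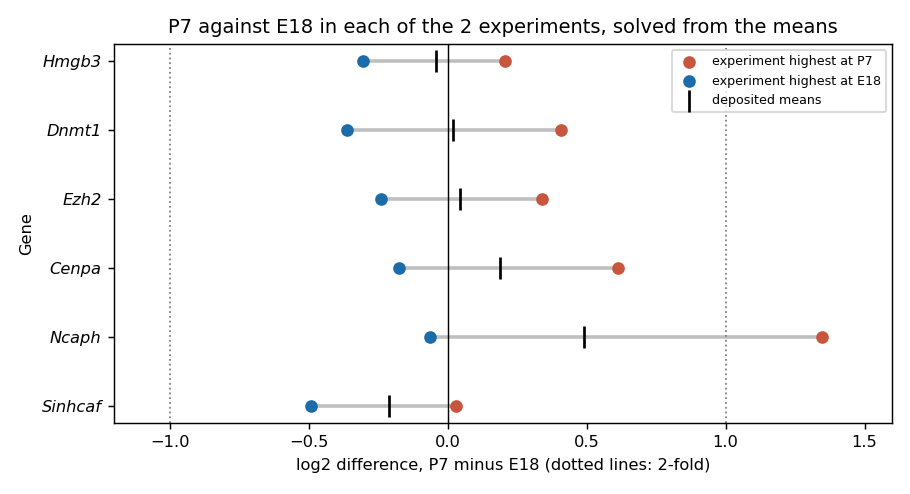
log2 difference, P7 minus E18, in the experiment that was highest at P7 (red), the experiment that was highest at E18 (blue) and the deposited means (black bars) for the 6 genes whose experiments can be solved; dotted lines mark 2-fold. Each gene has 1 experiment on either side of 0, as the solution requires, and Ncaph spans the widest range, from -0.06 to 1.35.

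Limits can also be set for the later falls. Under the same reading, a mean m leaves each experiment at most 2 m, which sets the smallest fall either experiment can have had. At P56 against E18 this was 40.7-fold for Hmgb2, 39.3-fold for Ncaph, 14.2-fold for Sinhcaf, 7.67-fold for Cenpa, 6.21-fold for Hmgb3, 4.22-fold for Ezh2 and 2.41-fold for Hmgn2. The value of Ncaph is set by the 1% limit. The means leave Ncaph at most 0.14% at P56 in each experiment, so its smallest fall is larger than the 39.3-fold given. These 7 genes thus fell 2-fold or more in each experiment, which the means require of 14.4% of all probes. For Dnmt1 the means do not require a fall in each experiment, since the smallest ratio of E18 to P56 they allow is 0.98. At P14 against P7 all 8 genes must have been lower in each experiment, as 16.7% of probes must. Of the 8, 4 must have fallen 2-fold or more in each (Ncaph 4.56-fold, Hmgb2 3.41-fold, Ezh2 2.40-fold and Cenpa 2.18-fold), beside 5.02% of probes. A mean under 50% leaves room for 0 in 1 experiment, so for these genes the means can require no fall from P14 or P21 in each experiment, the last fall of Cenpa included.

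Profiles of other genes were compared by the root mean square difference of log2 values over the 5 ages, as a description without a test. Hmgb2 and Ncaph differed by 0.28, and both were near Igfbpl1, a gene of immature neurons (0.29 from Hmgb2 and 0.08 from Ncaph), and Ccnd2, the cyclin D2 gene (0.34 and 0.20). These distances rest on the 1% limit, since Ncaph stood at 0.07% at P21 and P56, Hmgb2 at 0.82% at P56, and Igfbpl1 and Ccnd2 both at 0.03% at P56. With no floor other than the smallest value Hmgb2 and Ncaph differed by 1.90, and the genes nearest to Hmgb2 were Sox11 (0.56), Prc1 (0.59) and Mycn (0.60). Ezh2 was closest to the replicative helicase genes Mcm5 (0.16) and Mcm7 (0.17) and to Acot1, an acyl-CoA thioesterase gene (0.18). Cenpa was closest to E2f1, a transcription factor gene of the G1 to S transition (0.29), then to Cks2 (0.38), which encodes a partner of cyclin-dependent kinases, and Dtl (0.43), which encodes a substrate receptor of a ubiquitin ligase. E2f1 also dropped late, to 5.99% at P56, against 14.0% at P21.

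Sinhcaf was closest to Cks1b (0.22), which encodes another kinase partner, Nt5dc2 (0.24) and Rrm2 (0.28), a subunit gene of ribonucleotide reductase. Hmgn2 lay nearest to Bok (0.09), an apoptosis gene of the Bcl-2 family, Snrpg (0.10), a spliceosome gene, and the condensin gene Smc4 (0.11). Hmgb3 was less close to its neighbours, Ppic (0.19), a cyclophilin gene, Sstr2 (0.28), a somatostatin receptor gene, and Jpt1 (0.32). Dnmt1 had the closest neighbours, Larp7 (0.04), a gene of the 7SK RNA particle, Ahcy (0.05), which encodes the enzyme that removes the by-product of methylation reactions, and Nnt (0.05), a mitochondrial transhydrogenase gene. A small total change makes small differences likely on this measure. All points share the same 5 columns, and with Pearson correlation as the measure 4 of these 24 neighbours were named again.

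Other chromatin genes, taken from 6 lists with measured members, had a smaller median fall. The 8 members had been chosen with earlier results known, so this gap in medians is no finding about them. Single list genes fell further than some members, such as Smc2 (-3.13 at P56 against E18) beside Hmgn2 (-2.54). Of 122 genes in 7 such lists 26 were measured, and at P56 against E18 21 fell, 1 rose (Hdac5) and 4 stayed within 2-fold, with a median log2 difference of -1.36 beside -1.07 over all probes, of which 52.5% fell. That share is also the background of the list counts that follow, which are on the deposited scale alone. With columns divided by their medians 16.4% of all probes fell. On that scale Dnmt1 moved from -1.18 to -0.17 and Hmgn2 from -2.54 to -1.53, and the genes of the lists shift alike. List falls up to the size of that of H2ax (-1.96 on the deposited scale) would therefore not reach 2-fold there. These make up most of the 21. All 10 measured genes of histones, chaperones and assembly fell, with a median of -1.70. The most changed was Nasp, a histone chaperone gene, which fell 6.68-fold to 13.9% at P56, against 93.0% at E18, and the least was Set, at -1.15. All 7 of remodellers, heterochromatin and lamina fell, from -2.33 for Smarcc1, a subunit gene of the SWI/SNF remodeller (5.03-fold), to -1.04 for Cbx1, a heterochromatin protein 1 gene.

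In the list of centromere and condensation 3 of 5 genes fell. The condensin genes Smc2 and Smc4, whose products form the ring that Ncaph closes, fell 8.75-fold and 5.75-fold at P56 against E18, and Incenp, a gene of the chromosomal passenger complex, fell 3.05-fold. Smc3, of the cohesin ring, stood at 57.0% at P56, against 89.6% at E18, and Top2b, a topoisomerase gene also used by neurons, at 41.3%, against 78.0%, both within 2-fold. Of the 11 genes of DNA methylation other than Dnmt1, 0 were measured. The 19 measured division genes all fell, with a median of -3.70, close to the -4.01 of the chromatin genes described here; Ccna2, the cyclin A2 gene, changed most with the 1% limit, at -6.01 (1.37% at P56, against 88.1% at E18), and Pcna, the replication clamp gene, least, at -2.05. Ccnd2 stood at 0.03% at P56, so its -5.63 is a limit and its fall may have been the larger.

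**Figure D4:**
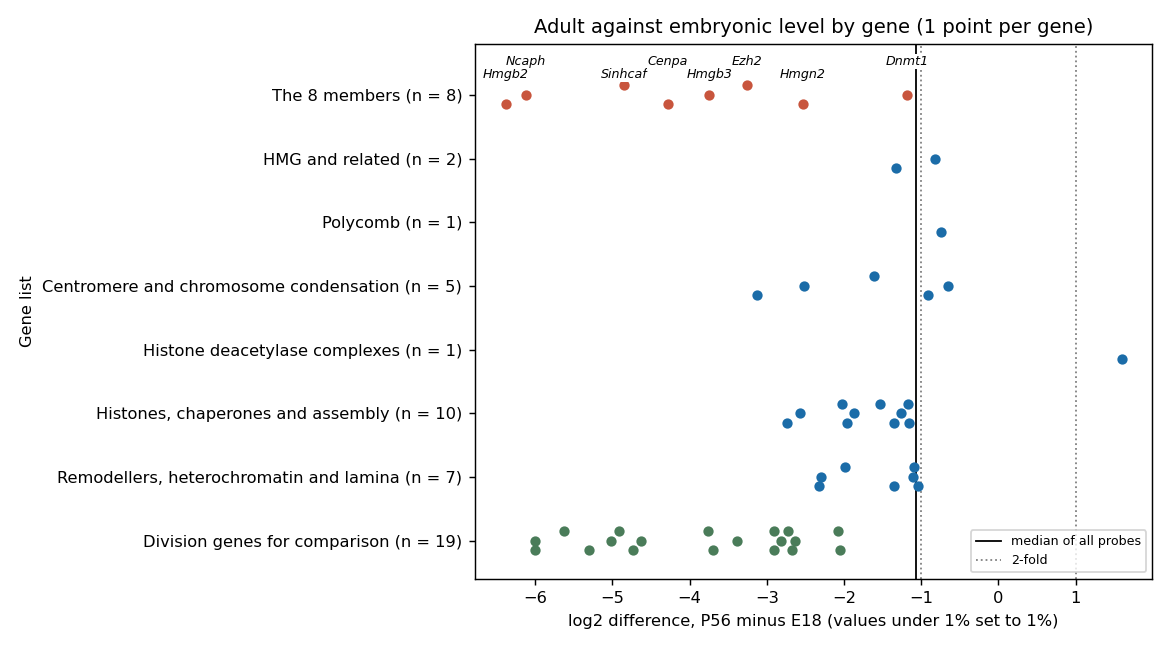
log2 difference, P56 minus E18, for each measured gene (1 point per gene, mean of probes where there are several) in the 8 members, the other chromatin lists and the division genes; the solid line is the median of all 897 probes and dotted lines mark 2-fold. Values under 1% are set to 1%, which limits Hmgb2, Ncaph and Ccnd2; the members run from -6.38 to -1.18 and the division genes from -6.01 to -2.05, while the other chromatin genes lie between -3.13 and 1.59.

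Markers of cell types moved over the same ages, and their part in these falls was not tested. Of the 8 listed markers of granule cell progenitors 4 were measured and all fell at P56 against E18 (median -5.04). Of these, Ccnd1, Ccnd2 and Mki67 are also counted among the division genes, and Mycn stood at 2.29% at P56, against 93.2% at E18. Atoh1, the defining factor of these progenitors, is not analysed here, so the name of dividing progenitors rests on cycle genes. Of 5 markers of immature neurons 3 were measured and all fell (median -5.29). Of 6 markers of mature granule cells 5 were measured and rose (median 3.36), and of 5 Purkinje cell markers 3 were measured and rose (median 1.88), Pcp2 among them at 82.7% at P56, against 22.5% at E18. The 4 markers of meninges and connective tissue also fell (median -2.07), with a median level of 24.4% at P56, against 100% at E18, as did the single endothelial marker measured, Kdr (-1.85). The 3 measured oligodendrocyte markers and the 3 of astrocytes rose (medians 5.77 and 2.78), and of the 2 microglial markers Ctss rose and Laptm5 stayed within 2-fold. Ttr, the marker of choroid plexus, stood at 62.9% at P56, against 100% at E18, within 2-fold. No listed marker of blood was among the named probes.

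The letters of 3 motifs were searched in the promoter windows of the 8 genes, each 300 bases long, from 250 before to 50 after a RefSeq start; the genes have 11 windows, since Dnmt1 has 3 and Sinhcaf 2. The CCAAT box was in 7 of the 11 windows and in 6 of the 8 genes, beside 37.4% of all 32851 windows, 41.1% of genes and 46.9% of the genes of this table that have a window. The CHR element was in 5 windows and 5 genes (Hmgb2, Hmgb3, Dnmt1, Cenpa and Sinhcaf), beside 17.9% of windows, 20.2% of genes and 17.9% of the genes of this table. An E2F-like match, TTGGCGC or TTCCCGC, was in 4 windows and 4 genes (Dnmt1, Ezh2, Ncaph and Sinhcaf), beside 6.81% of windows and 7.79% of genes, and beside 17.0% of the genes of this table. A CCAAT box and a CHR element stood together in 4 of the 11 windows (Hmgb2, Hmgb3, Cenpa and 1 of Dnmt1), beside 6.95% of all windows. For this pair the share among the genes of this table was not taken. ATTGG, the complement of the CCAAT box, shares letters with TTGGCGC, so matches to both can overlap; in the 11 windows 0 pairs of matches did. In the Hmgb2 window, printed above, a CHR element lies 30 bases before the start between CCAAT boxes at 73 and 11 bases before it. In Cenpa and Ezh2 the CHR element and the E2F-like match lie 17 and 5 bases after the start, past the printed stretch. A match describes letters in a window and not a bound site, and a window without one says nothing about the factor.

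**Figure D5:**
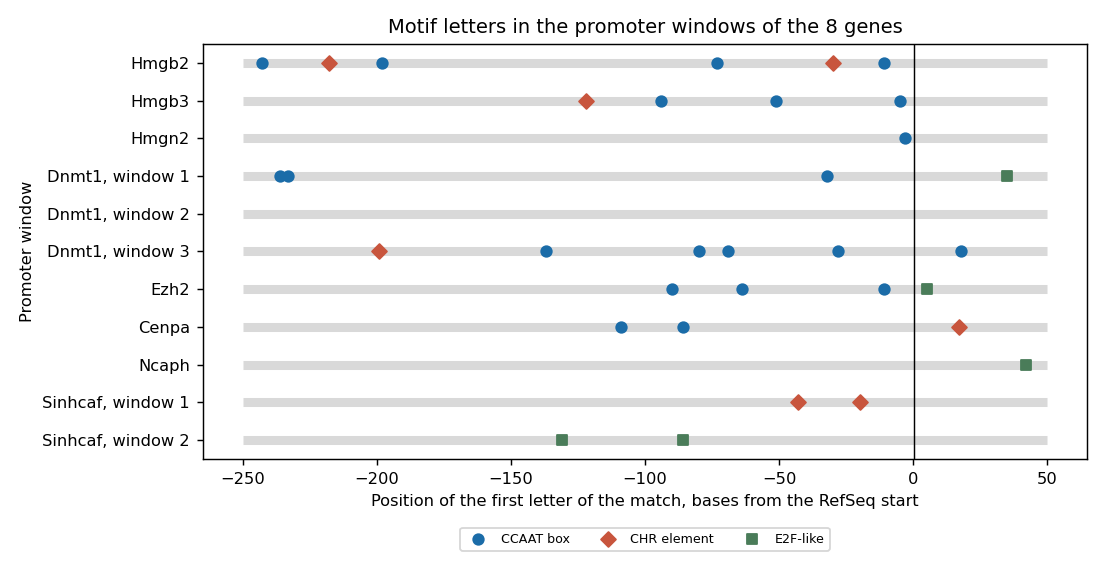
Position of each match, in bases from the RefSeq start (vertical line), of the CCAAT box (blue circles), the CHR element (red diamonds) and the E2F-like letters (green squares) in the 11 promoter windows, drawn as grey bars of 300 bases. Hmgb2, Hmgb3, Cenpa and 1 Dnmt1 window hold CCAAT boxes together with a CHR element, and 1 of the 3 Dnmt1 windows holds none of the letters.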

How the data were processed

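Total RNA of mouse cerebellum at 5 ages had been hybridised to arrays. Per the labels, the authors averaged the signal of 2 array experiments at each age; how they corrected background, normalized arrays and chose probes is not stated. The deposited numbers were taken as percent of each probe's highest age, judging by their range. Gene names came from the platform's annotation: 787 of 897 probes have 1 symbol, 16 several and 94 none. All 8 members matched by gene identifier and symbol in a RefSeq table of GRCm38.p6. Differences were taken between log2 percent values, those under 1% being set to 1%, and a probe was called higher or lower at 2-fold or more. With 1 column per age no test across samples was possible. The number of arrays limits the precision, and no depth applies.

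Bounds for the 2 experiments were computed from the means, as given where they are used, and tested on simulated data. Likeness of profiles was the root mean square difference of log2 values over 5 ages, each probe centred on its mean. Motif letters were searched on both strands of RefSeq promoter windows of 300 bases. The members and lists were chosen with earlier results of these data known. The genes named are the 8 members, the 3 genes most alike to each, and from each list the gene that changed most each way between P56 and E18; others were named after their values were seen. Floors, a pseudocount, scalings between columns, thresholds, a filter on low values and another measure of likeness were tried as alternatives. Calculations used Python 3.11.15 with numpy 2.4.6 and pandas 2.3.3, and figures matplotlib 3.10.9.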

Additional observations from a re-analysis of the deposited data

How the results depend on the processing

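Of 288 differences of single members over 6 comparisons and 6 alternatives, 262 kept their side of 2-fold, 23 no longer reached it, 2 newly reached it, and 1 turned: Ezh2 at P21 against P14, 0.057 with quantile normalization. Of the 262, 237 kept their sign, 20 had a value of exactly 0 and 5 changed sign within 2-fold: at P21 against P14 Dnmt1 (-0.14) was 0.26 with columns divided by their medians and 0.38 with quantile normalization and Cenpa (-0.35) 0.049 and 0.37, and at P56 against P21 Hmgb3 (0.0062) was -0.044 with quantile normalization. All 8 members fell at P14 against P7 with each floor tried, but at P21 against P14 the 5 falls became 0 when values were raised to the 10th percentile (20.4%) or the 25th, since most of them then lie there, and 3 with quantile normalization or when probes with any value under 1% were dropped, which leaves out Hmgb2 and Ncaph. At P56 against P21 the 1 member that fell became 0 with either percentile floor, and 2 with the smallest value as floor, with columns divided by their medians or with a 1.5-fold threshold. Of the 24 neighbours in profile 4 were named again with Pearson correlation, and 21 with no floor other than the smallest value, an alternative chosen after seeing the data. The floor at the 25th percentile left Ncaph at -0.96 for P56 against E18. Each member has 1 probe, so choosing 1 probe per gene could give no other value. No paired analysis was possible because each age has 1 column. With 2 experiments in each mean and none given singly, their spread is known only as the limits above, and no signal over background is given.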

Other observations

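Paralogs of chromatin proteins that were in no list, or in 1 list on one side alone, were looked at after the values were seen. Nap1l2, a nucleosome assembly gene of neurons, stood at 100% at P56, against 43.6% at E18, and was 2.30-fold higher. Its relative Nap1l1, which is widely expressed, was lower on both of its probes: 30.1% and 20.1% at P56, against 100% on both at E18. The H2A.Z genes moved the same way as each other: H2az2 stood at 16.1% at P56, against 73.2% at E18 (4.54-fold lower), and H2az1 at 38.0%, against 91.1% (2.40-fold lower). With 1 column per age these differences have no test.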
